A study of Mus musculus with 7 samples.

Results

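Levels of 10 genes for checkpoint and costimulatory ligands were measured in tumor, macrophage, dendritic and endothelial cells of mouse malignant peripheral nerve sheath tumors (MPNSTs), with and without radiation. The members were Cd274, Pdcd1lg2, Cd80, Cd86, Lgals9, Pvr, Nectin2, Cd276, Cd47 and Sirpa, chosen by symbol, and each had 1 row among the 33696 genes of the feature list. JW23.3, a male murine MPNST line with mutant Nf1 and Trp53, was implanted subcutaneously in wild-type C57/B6 females aged 5 to 6 weeks. The irradiated group (4 tumors) received 5 daily fractions of 2 Gy with lead shielding around the tumor, the control group (3 tumors) received none, and each tumor gave 1 droplet library at day 21. All tumors came from 1 cell line, which limits them as a model to that line.

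The members act where a T cell, an NK cell or a phagocyte meets another cell. Cd274 (PD-L1) and Pdcd1lg2 (PD-L2) bind the inhibitory receptor PD-1, whereas Cd80 and Cd86 bind both CD28, which costimulates T cells, and CTLA-4, which restrains them. Lgals9 encodes galectin-9, a lectin described as a ligand of TIM-3, and Pvr (CD155) and Nectin2 (CD112) engage the activating receptor CD226 and the inhibitory receptors TIGIT, CD96 and PVRIG. Cd276 (B7-H3) is a B7-family protein that is often raised on tumors and tumor vessels. Cd47 binds Sirpa, a receptor of myeloid cells whose engagement restrains phagocytosis. Cd274 is a well-known interferon-inducible gene.

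Of 39537 cells with 646559899 UMIs (unique molecular identifiers, which count single RNA molecules), 34297 were retained (2341 to 7447 per tumor, with library medians of 6865 to 21501 UMIs per cell). Cells were classed by the number and level of marker genes that excluded all members, which gave 15107 tumor-like, 12111 macrophage-like, 287 dendritic-like, 472 endothelial-like and 1378 T/NK-like cells and left 4942 cells in no class. Dendritic-like cells were few (24 to 61 per tumor) and carried macrophage markers at 20.5 to 26.7 UMIs per 10000, against 261 to 320 in macrophage-like cells. Of the markers of tumor-like cells, Peg3 was found in 0.073% and Mdk in 10.8% of them, so Peg3 was near absent. Each pair of libraries shared 3 to 19 cell barcodes. By cell number, UMIs and genes per cell and mitochondrial share, the libraries were divided into 2 sets, called technical sets here. Set 1 held irradiated tumor 1 and control tumors 2 and 3, and set 2 held irradiated tumors 2 to 4 and control tumor 1. This was the best of 63 divisions into 2 sets, so 2 sets would be found in any data, and no label names a batch. Group differences are given within each set as well, where 1 of the groups holds only 1 tumor. A level is given in CPM (counts per 1000000), the UMIs of a gene over all UMIs of its class in a tumor. Because the assay counts 3′ ends, levels are compared for 1 gene at a time, between classes or tumors.

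Cd274 was highest in dendritic-like cells in 7 of 7 tumors and lowest in tumor-like cells in all 7. In dendritic-like cells it was present at 191, 396, 545 and 646 CPM in irradiated tumors 1 to 4 and at 451, 460 and 380 CPM in control tumors 1 to 3 (439 ± 142, SD, n = 7). In macrophage-like cells it reached 70.3, 101, 96.6 and 182 CPM in the irradiated and 68.3, 44.7 and 71.3 CPM in the control tumors (90.5 ± 44.4). Endothelial-like cells held 11.2, 84.5, 38.2 and 98.1 CPM in the irradiated and 10.7, 27.9 and 11.8 CPM in the control tumors (40.3 ± 36.5), and tumor-like cells 2.11, 3.47, 3.81 and 17.3 CPM in the irradiated and 5.50, 1.73 and 2.38 CPM in the control tumors (5.19 ± 5.50). The order dendritic-like, macrophage-like, endothelial-like, tumor-like held within every tumor, and irradiated tumor 4 had the highest level in each of the 4 classes. T/NK-like cells, which were not among the classes compared, held 189 ± 8.85 CPM.

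The class differences in Cd274 exceeded the spread between tumors. In 1 edgeR quasi-likelihood fit of 28 sums (4 classes in 7 tumors, with the tumor as a term), Cd274 was higher in dendritic-like than in tumor-like cells by 6.82 ± 0.32 on the log2 scale (estimate ± SE, adjusted p = 2.41e-14), and higher in dendritic-like than in macrophage-like cells by 1.97 ± 0.26 (adjusted p = 2.40e-06). It was higher in macrophage-like than in endothelial-like cells (endothelial against macrophage, -2.0 ± 0.33, adjusted p = 1.63e-05), and higher in endothelial-like than in tumor-like cells by 2.85 ± 0.38 (adjusted p = 1.11e-06).

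Pdcd1lg2 was highest in dendritic-like cells in 7 of 7 tumors among the 4 classes compared. It was present there at 27, 25.3, 102 and 52.0 CPM in the irradiated and 19.3, 41.8 and 27.7 CPM in the control tumors (42.1 ± 28.5), from 108 UMIs in all. Macrophage-like cells held 0.339 to 2.39 CPM and tumor-like cells 0.0547 to 0.295 CPM, and a single UMI was found in all endothelial-like cells. The difference between dendritic-like and macrophage-like cells was 4.97 ± 0.38 (log2, adjusted p = 5.75e-12). T/NK-like cells held 39.7 ± 8.32 CPM, a value inside the range of the dendritic-like cells.

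Among the 4 classes compared, the CD28 and CTLA-4 ligands were highest in dendritic-like cells and next highest in macrophage-like cells in 7 of 7 tumors. T/NK-like cells, outside this comparison, held 48.6 ± 24.8 CPM of Cd80 (19.5 to 95.4), a range that overlaps that of macrophage-like cells, and 53.2 ± 12.1 CPM of Cd86. Cd80 was present at 187, 387, 352 and 322 CPM in dendritic-like cells of the irradiated and 446, 359 and 372 CPM of the control tumors (346 ± 79.9), and at 19.5 to 43.6 CPM in macrophage-like cells (34.3 ± 10.4). Dendritic-like cells exceeded macrophage-like cells in 7 of 7 tumors, by 2.99 ± 0.16 (log2, adjusted p = 2.13e-15). Cd86 was present at 1175 ± 200 CPM in dendritic-like and 738 ± 107 CPM in macrophage-like cells, where the irradiated tumors held 751, 745, 654 and 609 CPM and the control tumors 702, 762 and 944 CPM. Its difference between these classes was 0.32 ± 0.11 (log2, adjusted p = 0.0172), with dendritic-like cells higher in 7 of 7 tumors by CPM. That call was lost without irradiated tumor 4 (0.27, adjusted p = 0.0592), without control tumor 1 (0.29, adjusted p = 0.0600), without control tumor 2 (0.30, adjusted p = 0.0525), without the tumor term (0.32, adjusted p = 0.0609) and with classes taken from clusters (0.45, adjusted p = 0.237).

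In tumor-like and endothelial-like cells, both genes were near 0. Tumor-like cells held 0.381 to 0.752 CPM of Cd86 and 0.337 to 0.998 CPM of Cd80, and endothelial-like cells held 4 UMIs of Cd86 and 1 UMI of Cd80 in all. The Cd86 level of tumor-like cells was 0.0583% to 0.102% of that in macrophage-like cells of the same tumor. The 15 macrophage markers together stood at 0.197% to 0.413%. That share was limited by the classing itself, which kept these markers under 20 UMIs per 10000 in each tumor-like cell. The classing also left out of the tumor-like class every cell with a UMI of Xist, a gene of the female host, or of the leukocyte gene Ptprc. Whether the Cd86 level is background was not tested. The macrophage markers were lower in tumor-like cells of irradiated (0.521 to 0.707 UMIs per 10000) than of control tumors (0.822 to 1.17), and likewise in endothelial-like cells (1.13 to 1.66 against 2.25 to 2.59), without overlap, and their part in the values of Cd80, Cd86, Sirpa and Cd274 there was not tested. Cd80, Cd274 and Sirpa in tumor-like cells stood at 0.819% to 3.18%, 3.00% to 9.54% and 3.74% to 6.34% of their macrophage-like levels, above the share of the markers in each case. The classing limited the markers directly, and these members at most through the cells it left out. The comparison therefore does not give the source of these levels, which was not tested.

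**Figure D1:**
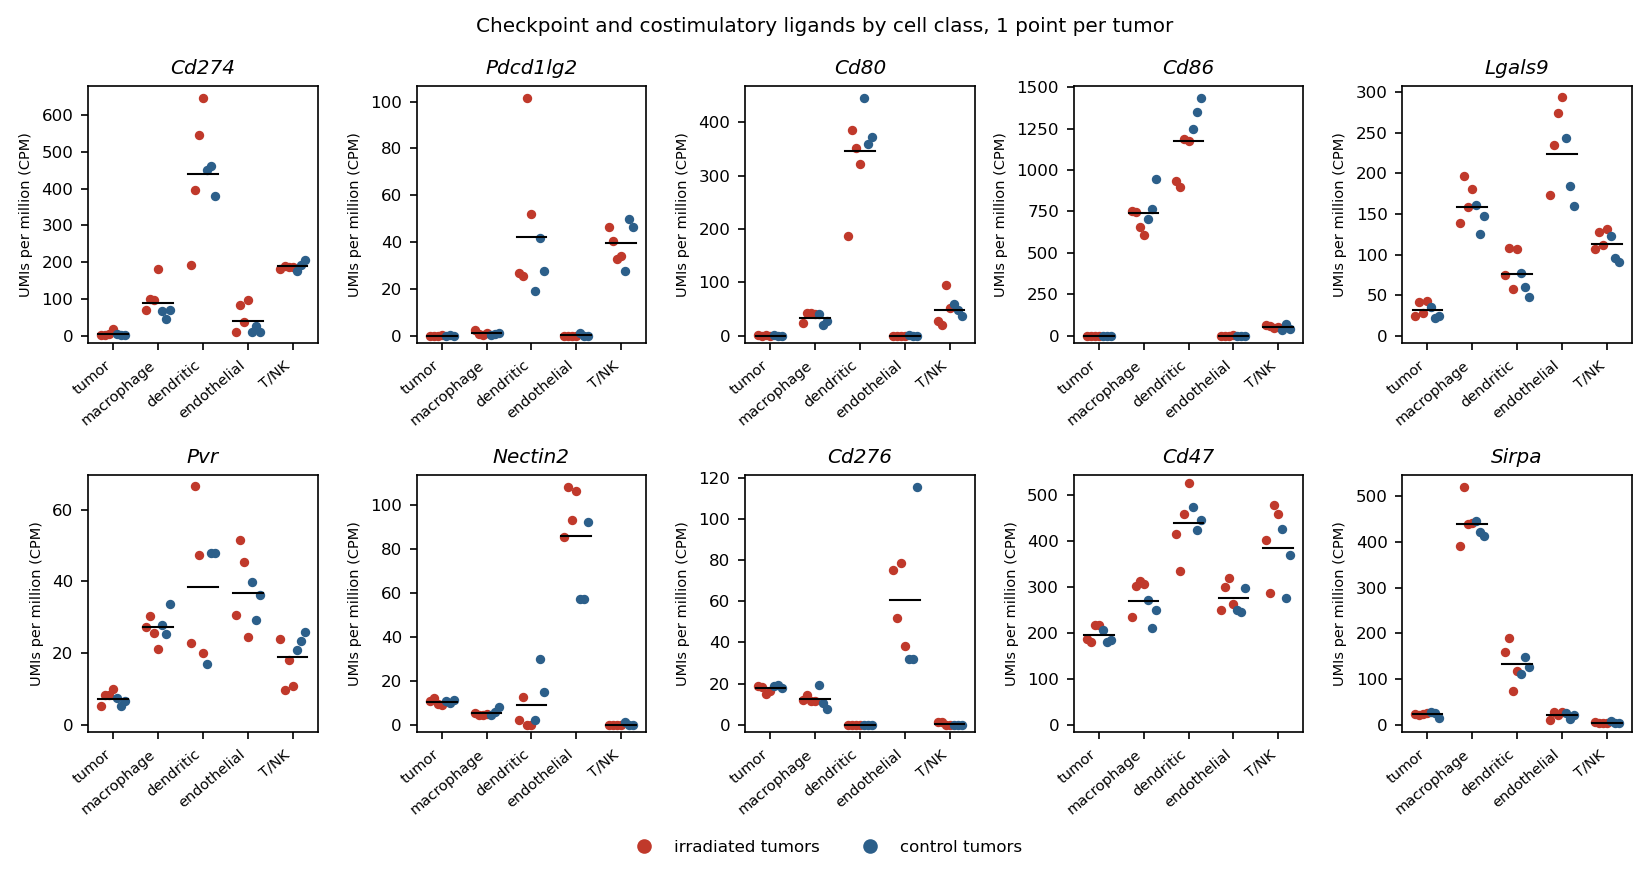
Level of each member in tumor-like, macrophage-like, dendritic-like, endothelial-like and T/NK-like cells (x axis) of the 7 tumors, in CPM (y axis, 1 panel per member), with 1 point per tumor colored by group and a line at the mean. Cd274, Pdcd1lg2, Cd80, Cd86 and Cd47 are highest in dendritic-like cells among the 4 classes compared, Lgals9, Nectin2 and Cd276 in endothelial-like cells and Sirpa in macrophage-like cells, in 7 of 7 tumors each.

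Lgals9 and the nectin-family ligands had another order. Lgals9 was highest in endothelial-like cells, at 173, 235, 275 and 294 CPM in the irradiated and 244, 185 and 160 CPM in the control tumors (224 ± 52.0). Macrophage-like cells held 158 ± 24.3, dendritic-like cells 76.0 ± 23.8 and tumor-like cells 31.5 ± 8.49 CPM. Outside this comparison, T/NK-like cells held 116 CPM of Lgals9 pooled over tumors. The gene was higher in macrophage-like than in tumor-like cells by 2.80 ± 0.11, and lower in dendritic-like than in macrophage-like cells (-1.40 ± 0.12, log2, adjusted p = 9.32e-11). Endothelial-like and macrophage-like cells could not be ordered for Lgals9, since the difference was -0.01 (adjusted p = 0.977) with trimmed-mean (TMM) scaling, 0.28 (adjusted p = 0.0241) with DESeq2 size factors and 0.49 (adjusted p = 0.000163) with total UMIs alone.

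Nectin2 was highest in endothelial-like cells, with 85.1, 108, 93.1 and 106 CPM in the irradiated and 57.3, 57.1 and 91.9 CPM in the control tumors (85.5 ± 21.0). Tumor-like cells held 9.06 to 12.1 CPM and macrophage-like cells 4.44 to 8.02 CPM, and 17 UMIs were found in all dendritic-like cells. The endothelial-like level exceeded that of macrophage-like cells by 3.46 ± 0.22 and that of tumor-like cells by 2.91 ± 0.20 (log2, adjusted p = 1.10e-14 and 2.74e-13), and macrophage-like cells fell below tumor-like cells (-0.55 ± 0.18, adjusted p = 0.00716). Nectin2 did not pass between dendritic-like and tumor-like cells (-0.60 ± 0.44, adjusted p = 0.223), but did without control tumor 2 (-1.03, adjusted p = 0.0444). Pvr was low everywhere, at 7.34 ± 1.71 CPM in tumor-like, 27.3 ± 4.00 in macrophage-like, 38.5 ± 18.7 in dendritic-like and 36.8 ± 9.57 in endothelial-like cells. The tumor-like level was the lowest in 7 of 7 tumors, by 2.27 to 2.38 on the log2 scale. The 3 other classes did not differ in Pvr beyond their spread (adjusted p of 0.708 to 0.948 by edgeR), and the sign of each of these 3 differences turned under another scaling or without 1 tumor.

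Cd276 was the member with no UMI in a class. Dendritic-like cells of all 7 tumors held 0 UMIs of 2667288, which allows a level of up to 1.12 CPM by counting error. Endothelial-like cells held 75.3, 51.6, 78.8 and 38.1 CPM in the irradiated and 32.0, 31.9 and 115 CPM in the control tumors (60.4 ± 31.0), tumor-like cells 17.8 ± 1.61 CPM and macrophage-like cells 12.7 ± 3.61 CPM. Pooled over tumors, the levels of these classes were 64.5, 18.1 and 12.9 CPM, which are at least 57.3-fold, 16.1-fold and 11.4-fold higher than the dendritic-like limit of 3 UMIs over the pooled class. Endothelial-like cells exceeded tumor-like cells by 1.73 ± 0.28 (log2, adjusted p = 3.94e-05). Macrophage-like and tumor-like cells were not told apart with TMM scaling (-0.05 ± 0.23, adjusted p = 0.846), whereas macrophage-like cells were lower with total UMIs alone (-0.50, adjusted p = 0.0449).

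The pair Cd47 and Sirpa differed in breadth. Cd47 was detected in every class, at 181 to 218 CPM in tumor-like, 211 to 314 in macrophage-like, 336 to 527 in dendritic-like and 247 to 320 in endothelial-like cells. T/NK-like cells, outside this comparison, held 400 CPM of Cd47 pooled over tumors. Cd47 was higher in dendritic-like than in tumor-like cells by 1.27 ± 0.10, and higher in macrophage-like than in tumor-like cells by 0.90 ± 0.10 (log2, adjusted p = 3.80e-12 and 8.15e-10). Endothelial-like cells were below macrophage-like cells with TMM scaling (-0.46 ± 0.10, adjusted p = 0.000188), but not past the threshold with DESeq2 size factors (-0.17, adjusted p = 0.114), and the sign turned with total UMIs alone (0.04, adjusted p = 0.762). Sirpa was highest in macrophage-like cells, at 391, 520, 440 and 442 CPM in the irradiated and 447, 421 and 413 CPM in the control tumors (439 ± 40.8). Dendritic-like cells held 133 ± 37.6 CPM, and tumor-like (23.6 ± 3.85) and endothelial-like cells (21.3 ± 6.81) were not told apart (-0.24 ± 0.19, adjusted p = 0.299). Macrophage-like cells exceeded tumor-like cells by 4.67 ± 0.15 (log2, adjusted p = 3.05e-22), and dendritic-like cells were below macrophage-like cells (-2.08 ± 0.15, adjusted p = 9.69e-13).

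The members called at an adjusted p of 0.05 in each of the 6 class pairs were counted beside the share of all 14219 genes tested. Macrophage-like against tumor-like cells, 8 members were higher and 1 lower of 10, where 40.1% of all genes were higher and 41.8% lower. Dendritic-like against tumor-like cells, the counts were 8 and 1 (all genes, 27.1% and 41.5%), and endothelial-like against tumor-like cells 6 and 0 (26.5% and 33%). Dendritic-like against macrophage-like cells, 5 were higher and 3 lower (12.5% and 30.1%), endothelial-like against macrophage-like cells 2 and 5 (26.9% and 35.3%), and endothelial-like against dendritic-like cells 3 and 6 (29.0% and 22.5%). Cd86 was also called higher in endothelial-like than in tumor-like cells with classes taken from clusters (2.93, adjusted p = 9.28e-06). Pdcd1lg2 was also called lower in endothelial-like than in macrophage-like cells without control tumor 1 (adjusted p = 0.0346), where the endothelial-like sums hold no UMI of it. No member was highest in tumor-like cells in any tumor. The scaling mattered most for pairs with macrophage-like cells, since total UMIs alone moved the median of all genes by -0.44 (macrophage against tumor), 0.33 (dendritic against macrophage) and 0.49 (endothelial against macrophage) on the log2 scale. The share of calls that were higher was 48.9%, 29.3% and 43.3% in these 3 pairs with TMM, and 35%, 52.8% and 66.1% with total UMIs alone.

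Shares of cells with a UMI were compared after thinning to 2000 UMIs per cell. Cells of lower depth were left out, 239 tumor-like, 460 macrophage-like, 9 dendritic-like, 21 endothelial-like and 133 T/NK-like cells of irradiated tumors and 176, 886, 14, 46 and 218 of control tumors. Cd274 was then detected in 44.0 ± 15.8% of dendritic-like, 14.0 ± 6.05% of macrophage-like, 4.43 ± 3.73% of endothelial-like and 1.18 ± 0.949% of tumor-like cells (57.8%, 32.2%, 17.0% and 8.16% before thinning). Cd86 was detected in 72.9 ± 6.95% of dendritic-like and 62.7 ± 5.20% of macrophage-like cells, and in 0.187% of tumor-like and 0.260% of endothelial-like cells, below the 8.55% of T/NK-like cells (85.8%, 81.2%, 1.58%, 0.967% and 13.0% before thinning). Nectin2 was detected in 12.1 ± 3.02% and Cd276 in 9.17 ± 6.03% of endothelial-like cells, against 0 and 0.0789% of T/NK-like cells (41.6%, 26.8%, 0.110% and 0.179% before thinning). The median depth was 22667 UMIs in tumor-like, 6456 in macrophage-like, 7516 in dendritic-like, 6170.5 in endothelial-like and 3133 in T/NK-like cells.

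By the leading markers of the subsets, 45 of the 287 dendritic-like cells were type 1, 59 type 2 and 82 mature. Each subset had 3 or more cells in each tumor. The remaining dendritic-like cells met no subset and are not part of the subset levels. The mature cells, marked by Ccr7 and Fscn1, held the most Cd274 and Cd80 in 7 of 7 tumors. Pooled over tumors, Cd274 stood at 1082 CPM in mature cells (95% Poisson interval of 999 to 1170, for counting error only), against 194 (163 to 229) in type 1 and 172 (141 to 207) in type 2 cells. The type 1 level rested on irradiated tumor 4 and was 95.6 CPM without it, and type 2 cells were higher than type 1 cells in 5 of 7 tumors. Between tumors Cd274 ranged from 0 to 445 CPM in type 1 (median 8.49), from 21.4 to 374 in type 2 (median 167) and from 735 to 1601 in mature cells (median 1189). Cd80 stood at 773, 78.4 and 314 CPM in the same order, and Pdcd1lg2 at 137, 16.5 and 4.68 CPM, from 80, 12 and 3 UMIs. Without irradiated tumor 4 the type 1 level of Pdcd1lg2 was 3.83 CPM and that of Sirpa 19.1 CPM, and without irradiated tumor 3 that of Pvr was 7.75 CPM. Cd86 differed, with 1343 CPM in type 2, 961 in mature and 586 in type 1 cells, and the mature cells were below the type 2 cells in 6 of 7 tumors. Sirpa was higher in type 2 (198 CPM) than in mature (94.0) and type 1 cells (30.3), with type 2 first in 7 of 7 tumors. Pvr was highest in mature cells (63.3 CPM, against 12.4 in type 1 and 26.5 in type 2), and Cd276 had no UMI in any subset. These subset levels are descriptions with no test. Of 264 thinned dendritic-like cells, 107 held Cd274 and 21 held Pdcd1lg2, and 17 held both. If the genes were detected independently of each other, 8.51 would be found. These counts pool subsets and tumors, and both genes were highest in mature cells by pooled level. Whether they are detected together within a subset was not tested.

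**Figure D2:**
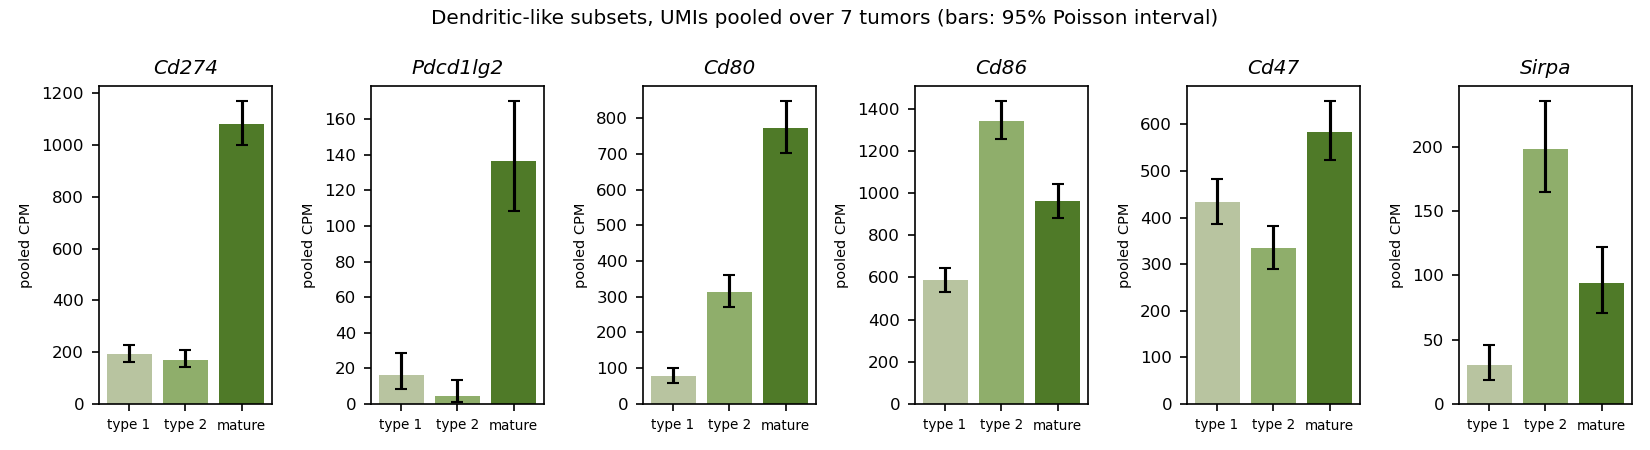
Level of Cd274, Pdcd1lg2, Cd80, Cd86, Cd47 and Sirpa in type 1, type 2 and mature dendritic-like cells (x axis), in CPM from UMIs pooled over 7 tumors (y axis), where error bars are 95% Poisson intervals for counting error only. Cd274 (1082 CPM), Pdcd1lg2 (137), Cd80 (773) and Cd47 (585) are highest in mature cells, and Cd86 (1343) and Sirpa (198) in type 2 cells.

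Within macrophage-like and tumor-like cells, Cd274 was concentrated in clusters led by interferon-response genes. These clusters were chosen after their leading genes and values were seen, and the values are a description with no test. The macrophage-like cluster (2512 cells, led by Slfn4, Cmpk2, Rsad2 and Ifit2) held Cd274 at 187, 167, 211 and 259 CPM in the irradiated and 152, 221 and 198 CPM in the control tumors. The monocyte marker Ly6c2 was also among the leading genes of this cluster, and the part of monocytes in its levels was not tested. The other macrophage-like cells held 60.5, 59.6, 62.2 and 86.8 CPM in the irradiated and 44.9, 30.6 and 60.5 CPM in the control tumors, below the cluster in every tumor. The tumor-like cluster (575 cells, led by Gm4841, F830016B08Rik and Ifit1) held 66.6, 27.5, 24.6 and 96.6 CPM in the irradiated and 45.0, 43.7 and 38.8 CPM in the control tumors, against 1.25 to 7.04 CPM in the other tumor-like cells. Irradiated tumor 4 was highest both within (96.6 CPM) and outside (7.04 CPM) this cluster. The cluster held 1.24% to 13.6% of the tumor-like cells of a tumor, and the macrophage-like cluster 7.58% to 58.2% of the macrophage-like cells. Both shares were lower in every tumor of technical set 1 than in any tumor of set 2. For tumor-like cells they were 1.24% to 1.73% in set 1 and 5.6% to 13.6% in set 2.

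Lgals9 followed the same clusters, with 67.1 to 102 CPM within and 21.6 to 38.3 CPM outside the tumor-like cluster, and 217 to 262 CPM within and 116 to 155 CPM outside the macrophage-like cluster. Cd47 was higher within the macrophage-like cluster in every tumor (342 to 395 against 200 to 289 CPM). Pdcd1lg2 was also higher within the macrophage-like cluster in every tumor (0.697 to 3.34 against 0.217 to 2.31 CPM), from 1 to 14 UMIs per tumor within it. In the tumor-like cluster Pdcd1lg2 had 0 UMIs of 13863298, which allows up to 0.266 CPM (95% Poisson interval), against 0.0554 to 0.333 CPM in the other tumor-like cells, so no difference was detectable at this depth. Cd276 overlapped within (10.4 to 26.2 CPM) and outside (14.9 to 19.6 CPM) the tumor-like cluster. Among the other macrophage-like clusters, cells led by major histocompatibility complex class II genes (H2-Eb1, H2-Aa and Cd74) held the most Cd86 (1126 CPM), Cd80 (50.7 CPM) and Pvr (38.9 CPM), pooled over tumors. Among tumor-like clusters, the cells led by Wif1 and by Col2a1 held the most Sirpa (46.4 and 35.9 CPM) and Cd276 (28.4 and 26.1 CPM), and the cells led by Wif1 came from 4 tumors with 3 or more cells.

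**Figure D3:**
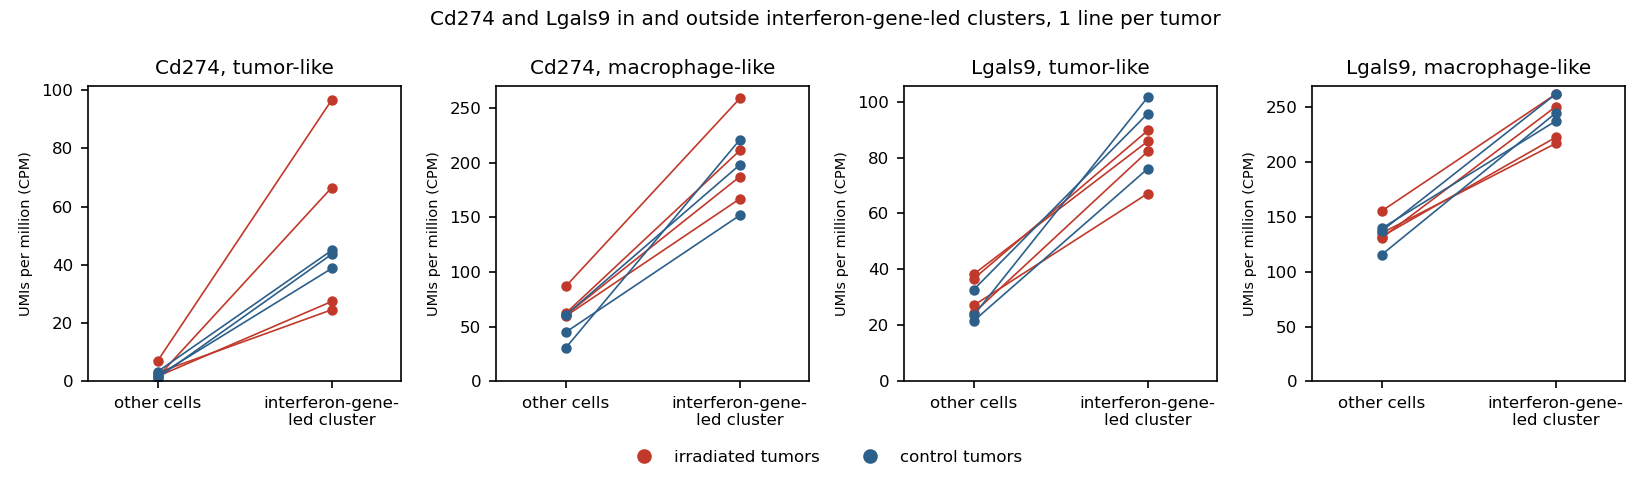
Level of Cd274 and Lgals9 (y axis, CPM) in the interferon-gene-led cluster and in the other cells of tumor-like and macrophage-like cells (x axis), with 1 line per tumor colored by group. Both genes are higher in the cluster in 7 of 7 tumors and in both classes.

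The 250 bases before the gene start are shown for Cd274 and Lgals9, which were both higher within these clusters, and for Pdcd1lg2, the other PD-1 ligand, which lies on the same chromosome and strand as Cd274. The sequences are from RefSeq (GRCm38.p6), which held entries for 7 of the 10 members. They cover chr19:29367188-29367437 (plus strand) for Cd274, chr11:78984925-78985174 (minus strand) for Lgals9 and chr19:29410669-29410918 (plus strand) for Pdcd1lg2. Capitals mark a match, on either strand, to GAAA, any 2 bases and GAAA, the core letters of interferon-stimulated response elements.
Cd274: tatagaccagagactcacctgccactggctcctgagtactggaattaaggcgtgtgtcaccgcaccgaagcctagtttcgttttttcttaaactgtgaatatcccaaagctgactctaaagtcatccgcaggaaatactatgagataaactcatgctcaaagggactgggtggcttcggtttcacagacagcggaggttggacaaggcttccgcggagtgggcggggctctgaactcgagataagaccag
Lgals9: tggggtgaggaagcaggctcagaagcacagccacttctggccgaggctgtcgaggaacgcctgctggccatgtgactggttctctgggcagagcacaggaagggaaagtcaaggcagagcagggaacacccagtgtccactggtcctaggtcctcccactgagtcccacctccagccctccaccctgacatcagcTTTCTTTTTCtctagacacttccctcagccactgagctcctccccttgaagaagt
Pdcd1lg2: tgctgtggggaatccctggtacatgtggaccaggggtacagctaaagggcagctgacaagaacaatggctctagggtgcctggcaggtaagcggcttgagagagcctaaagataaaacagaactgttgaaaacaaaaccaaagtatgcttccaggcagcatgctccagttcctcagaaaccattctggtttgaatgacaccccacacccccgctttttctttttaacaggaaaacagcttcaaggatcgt
Of the 7 members with an entry, only Lgals9 held this motif, with 1 match that starts 55 bases before the gene start, and 978 of 32851 promoters (2.98%) held it. The other 4 of the 5 motifs searched, on both strands, were TTCNNNGAA (7.02% of promoters), GGAANTTCC (0.813%), GGG, any 3 bases and TTCC (4.65%) and TGACTCA (4.46%), and no member held any of them in this window. TTCNNNGAA and GGAANTTCC can overlap. A match is a description of the letters only.

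Over the 28 sums of class and tumor, the 3 genes whose log2 CPM was most like that of Cd274 were Psmb9 (Pearson's r = 0.975) and Tap1 (0.975), both of the antigen-processing machinery, and Plekhm3 (0.957), among 9414 genes. For Cd276 they were Sh3bgrl2 (0.977), Ecscr (0.973), an endothelial surface protein, and Ptgs1 (0.954), the constitutive cyclooxygenase. For Sirpa they were Csf1r (0.977), which is also a marker used to class macrophage-like cells, Irf2bp2 (0.972) and Ctsz (0.971), a lysosomal protease. The sums share libraries and classes, and these values describe levels across 4 classes.

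Irradiated and control tumors were then compared within each class, to ask whether the ligands changed after radiation. By edgeR, 0% of the 17368, 12824, 5613 and 8299 genes tested in tumor-like, macrophage-like, dendritic-like and endothelial-like cells were called at an adjusted p of 0.05, and 230, 585, 195 and 271 genes had an unadjusted p under 0.05. DESeq2 called 0, 4, 0 and 0 genes, none of them a member. Accordingly 0 of the 9, 10, 8 and 7 members tested were called.

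Cd274 had the largest estimate of the members tested in tumor-like and endothelial-like cells, and shared it with Pdcd1lg2 in macrophage-like cells. In macrophage-like cells 3 of the 4 irradiated tumors lay above every control tumor, and irradiated tumor 1 (70.3 CPM) lay below control tumor 3 (71.3 CPM), and the difference was 0.84 ± 0.32 on the log2 scale (edgeR adjusted p = 0.860, exact two-sided permutation p = 0.114). Within the technical sets it was 0.29 and 0.83 in log2 CPM. The interferon-gene-led cluster, in which Cd274 was higher, held 7.71%, 39.2%, 26.3% and 58.2% of the macrophage-like cells in irradiated tumors 1 to 4 and 25.1%, 7.58% and 7.86% in control tumors 1 to 3. The groups overlapped in this share. The technical sets did not, with 7.58% to 7.86% in set 1 and 25.1% to 58.2% in set 2. The part of the share and of the sets in the difference was not tested. In endothelial-like cells the difference was 1.63 ± 0.71 (adjusted p = 1.00, exact permutation p = 0.171), and it had opposite signs within the sets (-0.60 and 2.35). It passed the threshold only when every gene with 1 or more UMIs was tested (1.59 ± 0.38, adjusted p = 0.0296). In tumor-like cells the difference was 0.96 ± 0.74 (adjusted p = 1.00, exact permutation p = 0.571), it was -0.05 without irradiated tumor 4, and it was -0.01 and 0.19 within the sets. In dendritic-like cells it was 0.00 ± 0.32, with -1.14 and 0.16 within the sets.

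Cd86 in dendritic-like cells was the only member and class in which the groups did not overlap. The irradiated tumors held 931, 897, 1188 and 1173 CPM and the control tumors 1248, 1351 and 1435 CPM, so every irradiated tumor was below every control tumor. The difference was -0.41 ± 0.16 (log2), with an unadjusted edgeR p of 0.0247 that did not pass the adjustment (adjusted p = 1.00). The exact permutation p was 0.0571, the smallest that this two-sided test can give with 4 and 3 tumors. The difference was -0.61 and -0.26 in log2 CPM within the sets. The macrophage markers in these cells ranged over 22.7 to 26.7 UMIs per 10000 in irradiated and 20.5 to 24.0 in control tumors, and their part in the difference was not tested. Over all genes tested in dendritic-like cells, 1.59% were lower in every irradiated tumor by CPM and 3.35% higher. The shares were 0.973% lower and 1.38% higher in tumor-like, 1.83% and 3.06% in macrophage-like cells. In endothelial-like cells they were 2.02% lower and 2.27% higher, and 0 members were without overlap in these 3 classes. Of these genes, 62.5% were higher in irradiated tumors in macrophage-like and 67.9% in dendritic-like cells, whereas after TMM scaling the counts were 311 higher and 311 lower and 138 higher and 138 lower.

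**Figure D4:**
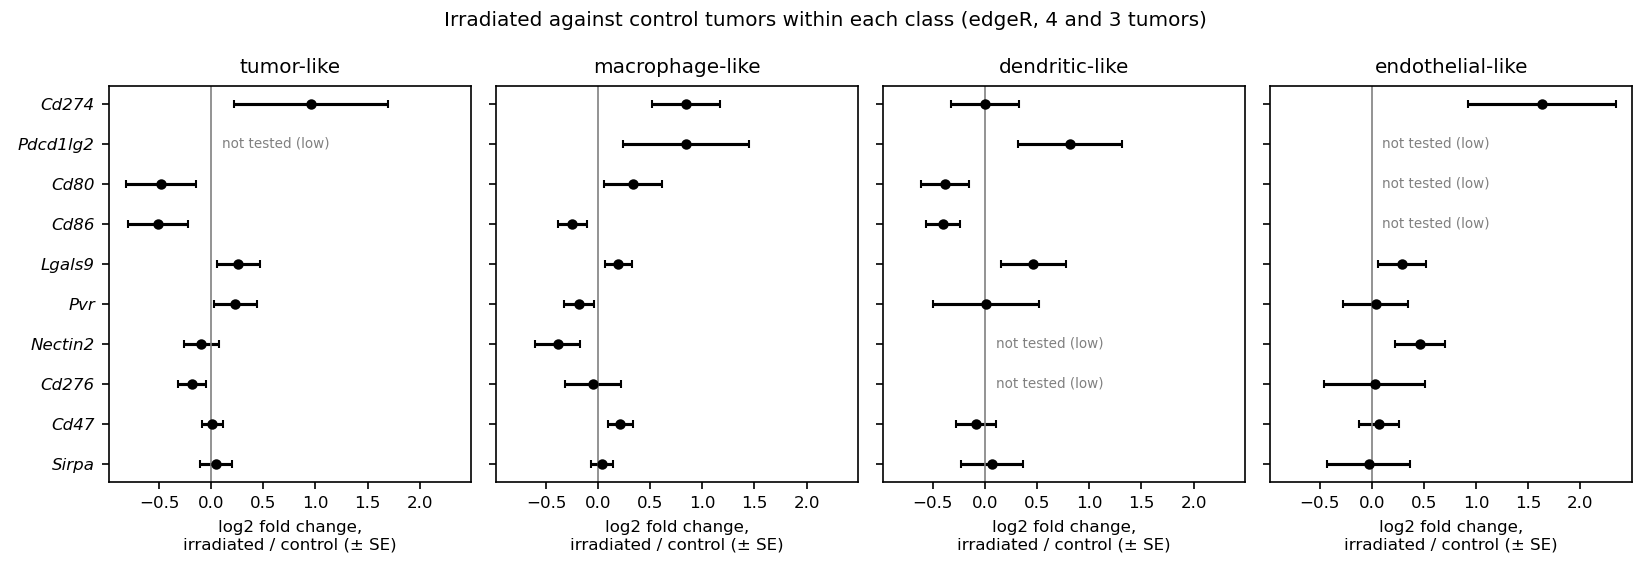
Difference between irradiated and control tumors for each member in the 4 classes (edgeR log2 fold change, x axis), where points are estimates and bars are 1 SE, for the members tested. The largest estimate is that of Cd274 in endothelial-like cells (1.63 ± 0.71), and no member passes an adjusted p of 0.05.

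The other members did not pass the threshold either. Cd86 had estimates of -0.51 ± 0.29 in tumor-like and -0.25 ± 0.14 in macrophage-like cells, and Lgals9 had estimates of 0.20 to 0.46, Cd47 of -0.09 to 0.21, Sirpa of -0.03 to 0.07 and Pvr of -0.18 to 0.23 on the log2 scale over the 4 classes, Cd80 of -0.48 to 0.33 over 3 classes, Nectin2 of -0.39 to 0.46 over 3 classes and Cd276 of -0.18 to 0.02 over 3 classes. Pdcd1lg2 was tested in macrophage-like (0.84 ± 0.61) and dendritic-like cells (0.82 ± 0.50). The median over members was 0.01, 0.12, 0.01 and 0.07 in tumor-like, macrophage-like, dendritic-like and endothelial-like cells, against 0.00, 0.00, 0.01 and 0.00 over all genes. The radiation difference itself was compared between classes by an interaction term, added after the data were seen, and no gene of 14219 was called in any of the 6 pairs. The smallest member p was that of Nectin2 between endothelial-like and dendritic-like cells (2.50 ± 0.86, edgeR adjusted p = 0.876), where the dendritic-like sums hold 17 UMIs. In that pair, 725 genes had an unadjusted p under 0.05.

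Genes that act with the members were read from 5 lists. Of the interferon-γ to IRF1 axis and PD-L1 protein stabilizers (11 genes, of which 11, 11, 9 and 10 were tested), 0 were called in any class between groups, with a median of 0.06, 0.19, 0.06 and 0.13 in tumor-like, macrophage-like, dendritic-like and endothelial-like cells. Of the CD8 effector and interferon-γ readout list (5 genes), 4, 4, 4 and 3 genes could be tested, 0 were called, and the medians were 0.88, 0.99, 0.48 and 1.74. Cxcl9, an interferon-γ-induced chemokine, had estimates of 2.67 ± 1.05, 1.36 ± 0.64, 1.90 ± 1.05 and 3.73 ± 1.74. Of the other costimulatory and checkpoint ligands (22 genes), 16, 17, 13 and 8 were tested and 0 called (medians -0.04, 0.13, -0.24 and 0.17), as were 0 of the CD47 partners and phagocytosis genes (12 genes, 10, 11, 9 and 6 tested, medians -0.03, 0.01, -0.02 and 0.32) and 0 of the receptors (8 genes, 3, 3, 1 and 0 tested, medians -0.11, -0.02 and -0.02).

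Between classes many genes of the same lists passed the threshold. Dendritic-like against macrophage-like cells, 10 of the 17 other ligands tested were higher and 4 lower, and 2 of the 12 CD47 partners were higher and 7 lower, where 12.5% of all genes were higher and 30.1% lower. Macrophage-like against tumor-like cells, 13 of the 17 other ligands were higher and 3 lower (all genes, 40.1% and 41.8%), led by Tnfsf9 (9.51 ± 0.32, log2), Cd83 (9.32 ± 0.18) and Cd40 (9.23 ± 0.26). Tnfsf9 is the 4-1BB ligand, and Cd40 is a receptor through which T cells activate antigen-presenting cells. Of the interferon-γ axis, 8 of 11 were higher in macrophage-like than in tumor-like cells and 2 lower, led by Cmtm6 (3.15 ± 0.13), which stabilizes PD-L1 protein. Of the CD8 effector and interferon-γ readout, 4 of 4 tested were higher in macrophage-like cells.

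The receptors of the members were read in T/NK-like cells. Pdcd1 (PD-1) stood at 128 ± 35 CPM, Cd28 at 601 ± 107, Ctla4 at 801 ± 228, Havcr2 (TIM-3) at 103 ± 32.5, Tigit at 83.0 ± 19.2, Cd226 at 191 ± 74.6 and Cd96 at 71.2 ± 18.5 CPM (SD, n = 7). Pvrig was near the floor, with 26 UMIs in all (4.09 ± 2.22 CPM). Each of the 8 receptors was detected in T/NK-like cells of 7 of 7 tumors.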

How the data were processed

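Single-cell suspensions of 7 tumors were made with papain and run as 1 droplet library each (10x 3′ chemistry). The authors deposited filtered matrices of UMI counts per gene and cell, for which the file headers name Cell Ranger 8.0.0 and the submitters' processing notes Seurat 4.4 and mm10. These are raw counts, not normalized. The members and lists were chosen with earlier results of these data known.

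Cells beyond 3 median absolute deviations on UMIs, genes, mitochondrial or ribosomal share were removed within each library. Classes were set by numbers and levels of marker genes, and no member was a marker. The dendritic and endothelial cuts were lowered on marker counts after the files were seen. Cells that met 2 classes were left unassigned, and no doublet caller was run. Counts were summed per tumor and class (at least 20 cells) and tested with edgeR 4.0.16 (quasi-likelihood, TMM, filterByExpr, Benjamini-Hochberg over all genes), in R 4.3.3. DESeq2 1.42.0, other scalings, no low-count filter, a replicate block, a technical set term, cluster classes, all deposited cells and leaving out each tumor were alternatives. Single members were also tested by exact permutation over 35 divisions of the tumors, on log2 CPM with a prior count of 2. This two-sided test can give no p under 0.0571. The tumor is the replicate, and the labels call the samples biological replicates. The interaction term, the subset levels without 1 tumor, the choice of interferon-gene-led clusters and the CPM scale of the counts without overlap were added after the data were seen. All members were named, with genes among the 3 of each list farthest from 0 and the 3 genes most like Cd274, Cd276 and Sirpa. On simulated counts the fits recovered 82.5% (tumor-like), 89% (macrophage-like), 89.5% (dendritic-like) and 87% (endothelial-like) of 200 changed genes between groups. Each of these genes was changed by 2 on the log2 scale, up or down, and smaller changes were not simulated. Of the genes called, 4.62% to 6.77% were not among the changed genes. Intervals and limits cover counting error only. One gene of these lists is not reported here.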

Additional observations from a re-analysis of the deposited data

Results flagged for a closer look

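In 37 sets of 4 irradiated tumors, 6 held a tumor whose gap to the nearest other passed the 95% critical value of Dixon's test, a size that chance gives in about 1 of 20 sets. Cd274 in tumor-like cells was highest in irradiated tumor 4 (17.3 CPM), and its estimate between groups was -0.05 without that tumor. Irradiated tumor 1 was lowest for Cd80 (23.7 CPM) and for Cd47 (235 CPM) in macrophage-like cells, and it is the 1 irradiated library of its technical set. Irradiated tumor 2 was highest for Cd276 in macrophage-like cells (14.7 CPM) and for Nectin2 in dendritic-like cells (12.7 CPM). The Nectin2 value is from 24 cells, and dendritic-like cells of all tumors held 17 UMIs of it. Cd86 in endothelial-like cells was 2.72 CPM in irradiated tumor 4, from 1 UMI. The causes were not tested.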

How the results depend on the processing

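Counts of genes called between irradiated and control tumors stayed at 0 under all alternatives except the DESeq2 Wald test in macrophage-like cells (4 genes, 1 higher and 3 lower) and every gene with 1 UMI in endothelial-like cells (33 genes, 24 higher and 9 lower). No label pairs an irradiated with a control tumor of the same number, and the correlations of their deviations were -0.436 to 0.117. A replicate block gave 0 genes in all 4 classes (116, 162, 161 and 189 before adjustment).

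Signs of estimates near 0 turned between groups. In tumor-like cells Cd47 was -0.0038 with the replicate block, -0.0022 with the technical set and -0.0068 with all deposited cells. In macrophage-like cells Cd276 was 0.064 with the replicate block and Sirpa -0.019 with the technical set. In dendritic-like cells Cd274 was -0.0023 with DESeq2 size factors, -0.0049 with the Wald test, -0.0090 with every gene, -0.33 with the replicate block and -0.41 with the technical set, and Pvr was -0.0098 with every gene and -0.42 with cluster classes. In endothelial-like cells Pvr was -0.0034 with every gene and -0.072 with the technical set, Cd276 -0.025 with every gene, and Sirpa 0.013 with the Wald test and 0.10 with cluster classes.

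Between classes, Sirpa (endothelial against tumor) was 0.093 with cluster classes. Nectin2 (dendritic against macrophage) was 0.22 with size factors, 0.28 with total UMIs, 0.042 with every gene and 0.28 with the Wald test. Against macrophage-like cells, endothelial-like Lgals9 was 0.28, 0.49, 0.079 and 0.28 in that order, Pvr 0.19 with size factors, 0.41 with total UMIs and 0.19 with the Wald test, and Cd47 0.036 with total UMIs. Pvr (endothelial against dendritic) was 0.045 with total UMIs.

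Leaving out 1 tumor at a time gave these ranges where a sign turned. Between groups they were -0.054 to 1.5 for Cd274, -0.20 to 0.010 for Nectin2, -0.050 to 0.043 for Cd47 and -0.13 to 0.14 for Sirpa in tumor-like cells, and -0.29 to 0.37 for Cd276 and -0.039 to 0.092 for Sirpa in macrophage-like cells. In dendritic-like cells they were -0.23 to 0.25 for Cd274, -0.41 to 0.35 for Pvr, -0.18 to 0.0070 for Cd47 and -0.13 to 0.26 for Sirpa, and in endothelial-like cells -0.091 to 0.19 for Pvr, -0.27 to 0.95 for Cd276 and -0.25 to 0.28 for Sirpa. Between classes they were -0.19 to 0.020 for Cd276 (macrophage against tumor), -4.11 to 1.23 for Pdcd1lg2 (endothelial against tumor), -0.15 to 0.15 for Pvr and -0.45 to 0.26 for Nectin2 (dendritic against macrophage), -0.069 to 0.065 for Lgals9 (endothelial against macrophage) and -0.27 to 0.019 for Pvr (endothelial against dendritic). The causes were not tested.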
